A study of Mus musculus with 6 samples.

Results

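The nuclear-encoded subunits of respiratory complex I were examined in cultured mouse muscle cells given recombinant human MG53 protein or a control protein. Members were all rows of the deposited gene table whose symbol is Ndufa, Ndufb, Ndufc, Ndufs or Ndufv followed by a number, with Ndufab1 included and the Ndufaf assembly factors left out. The rule found 38 genes among 27179 rows and used no measured value. All 38 passed the filter on low counts and were among the 13769 genes tested. They lie on 16 chromosomes.

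The cells were primary satellite cells, which are muscle stem cells, from hindlimbs of wild-type (WT) C57BL/6 mice. The labels call them ageing and give no age. All cultures had grown in DMEM with fetal bovine serum and basic fibroblast growth factor. For 72 h, labelled as day 3, they received either recombinant human MG53 (rhMG53, 3 libraries) or bovine serum albumin (BSA, the vehicle control, 3 libraries). MG53, a tripartite motif protein made in muscle, is known for its part in plasma membrane repair. The design text calls the replicates biological. Since the labels name no separate animals or cultures, the p-values reflect only how the 3 libraries of a group vary, and part of that may be technical.

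Complex I, or NADH dehydrogenase, is the entry point of the respiratory chain of the inner mitochondrial membrane. Its peripheral arm takes electrons from NADH, passes them along iron-sulfur clusters to ubiquinone, and its membrane arm pumps protons. The catalytic core is built from nuclear-encoded subunits of the peripheral arm and from mitochondrially encoded subunits of the membrane arm, and many accessory subunits surround it. Muscle depends on the complex for oxidative ATP supply, and differentiation of myoblasts is known to come with more mitochondria. Among the 38 genes, 7 encode core subunits, 29 encode accessory subunits, Ndufab1 encodes an acyl carrier protein that the complex also contains, and Ndufa4 encodes a protein now placed with cytochrome c oxidase (complex IV).

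Library totals ranged from 17374151 to 22738745 counts, and the 38 genes together took 0.311% to 0.363% of them. Levels are given as CPM, the count of a gene relative to the library size after scaling with TMM factors. The cultures expressed differentiated muscle genes strongly. The 10 markers of that state had summed levels of 47516 ± 902 CPM in BSA libraries and 45241 ± 3913 CPM in rhMG53 libraries (SD, n = 3). Pax7, which defines satellite cells, stood at 10.03 ± 0.99 and 8.44 ± 1.30 CPM, and Calcr, a marker of quiescent satellite cells, at 0.067 ± 0.019 and 0.039 ± 0.067 CPM. Of the 8 satellite cell markers 7 were tested, 4 with positive log2 fold changes (Myf5, Cd34, Vcam1 and Cxcr4) and 3 with negative ones (Pax7, Sdc4 and Itga7), with a median of 0.06 and 0 past the test. In bulk RNA, fewer cells of a type and less RNA per cell cannot be told apart.

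Short stretches of some promoters are shown to give the sequence around motif letters that a minority of the members hold and that the rule did not use. The shares given were not tested. RefSeq promoter windows on GRCm38.p6 (250 bases before to 50 after an annotated start) were at hand for 34 of the 38 members, in 36 windows. The letters CGCNTGCG, searched on both strands and written here as the core of the palindromic element bound by nuclear respiratory factor 1, matched in 12 of the 36 windows (33.3%). The same letters matched in 16.2% of 13633 windows of tested genes and in 8.21% of all 32851 windows. Overlapping windows of Ndufa5 and of Ndufa7 hold the same site, so by gene the match was in 10 of 34 members (29.4%), 19.1% of tested genes and 9.22% of all genes with a window. In the following stretches, written 5′ to 3′ on the gene's strand, capitals mark the match.

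Ndufa12, chr10:94198906-94198933, plus strand: tccagctctgCGCCTGCGtagaacgacc

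Ndufb10, chr17:24724432-24724459, minus strand: ctgcccactaCGCAGGCGcagctgtcac

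Ndufb4, chr16:37654429-37654456, minus strand: cttgtgcgcgCGCAGGCGcacttcctga

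Ndufs5, chr4:123718266-123718293, minus strand: ctgcttgctgCGCAGGCGcagacccgct

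Ndufa8, chr2:36049350-36049377, minus strand: tagagcagtgCGCTTGCGcgtcgctgga

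The letters AAGATGGCG, searched on both strands as a core of the element bound by the factor YY1, matched in 5 of the 36 windows (13.9%), against 2.77% of windows of tested genes and 1.40% of all windows. By gene this was 5 of 34 members (14.7%), 3.39% of tested genes and 1.64% of all genes. All 5 matches began between 22 and 35 bases after the annotated start. The ATG in each is part of the searched letters, and whether it is also a translation start was not tested. Capitals mark the match.

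Ndufa9, chr6:126849097-126849125, minus strand: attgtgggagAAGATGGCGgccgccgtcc

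Ndufc1, chr3:51408915-51408943, minus strand: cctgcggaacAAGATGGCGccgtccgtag

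Ndufs4, chr13:114388045-114388069, minus strand: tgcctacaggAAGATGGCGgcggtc

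Ndufs6, chr13:73328433-73328459, minus strand: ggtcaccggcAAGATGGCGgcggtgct

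Ndufs7, chr10:80249463-80249491, plus strand: ggccgaggccAAGATGGCGgcgctggcgg

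Ndufs6 held both motifs, with its CGCNTGCG match 15 to 8 bases before the start. Shares for the other searched letters were as follows. CCGGAAG, a core of the ETS family element that GABP binds, matched in 11.1% of member windows and 16.3% of windows of tested genes. TCAAGGTCA, the element of estrogen-related receptors, matched in 0 of the 36 windows, against 0.257% of windows of tested genes. TATAAA matched in 13.9% against 7.52%, and CCAAT in 27.8% against 37.4%. Median GC content of the windows was 59.2% for members and 60.7% for tested genes. A match describes these letters in these windows and was not tested for binding.

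A second feature of position was a head-to-head neighbour. In GENCODE vM21, 9 of the 38 members (23.7%) had a protein-coding start on the opposite strand within 1000 bases, pointing away without overlap. The share was 6.79% of 21952 protein-coding genes. Pairs of genes that overlap at their starts were not counted in either share. The 6.79% takes in genes that were not tested here, and no share among tested genes was computed. The closest were Ndufa7 with the ribosomal protein gene Rps28 at 10 bases and Ndufb9 with Tatdn1 at 18 bases, both named for their distance. Levels within a pair could differ widely: Ndufb9 stood at 126.8 CPM and Tatdn1 at 13.1 CPM, whereas Ndufa7 stood at 73.8 CPM and Rps28 at 135.6 CPM. Neither partner passed edgeR's test of rhMG53 against BSA (adjusted p = 0.970 for Rps28 and 0.991 for Tatdn1).

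To compare genes, levels were divided by the length of a curated RefSeq transcript, as CPM per kilobase. The median over the 38 genes was 83.2 CPM per kilobase. At the high end were Ndufa4 at 214.7 ± 17.03 CPM per kilobase (SD over the 6 libraries) and Ndufb9, an accessory subunit of the distal membrane arm, at 180.1 ± 12.3. At the low end were Ndufa6, an accessory subunit of the LYR family, at 29.9 ± 3.45, Ndufab1 at 21.2 ± 2.90 and Ndufa8, an accessory subunit facing the intermembrane space, at 3.24 ± 0.268. Neighbours in the order had overlapping ranges over the 6 libraries in 35 of 37 cases. The exceptions were the steps from Ndufa6 to Ndufab1 and from Ndufab1 to Ndufa8. The transcript used for Ndufab1 is 3479 bases long, the longest of the 38, so its place in the order depends on that choice.

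**Figure D1:**
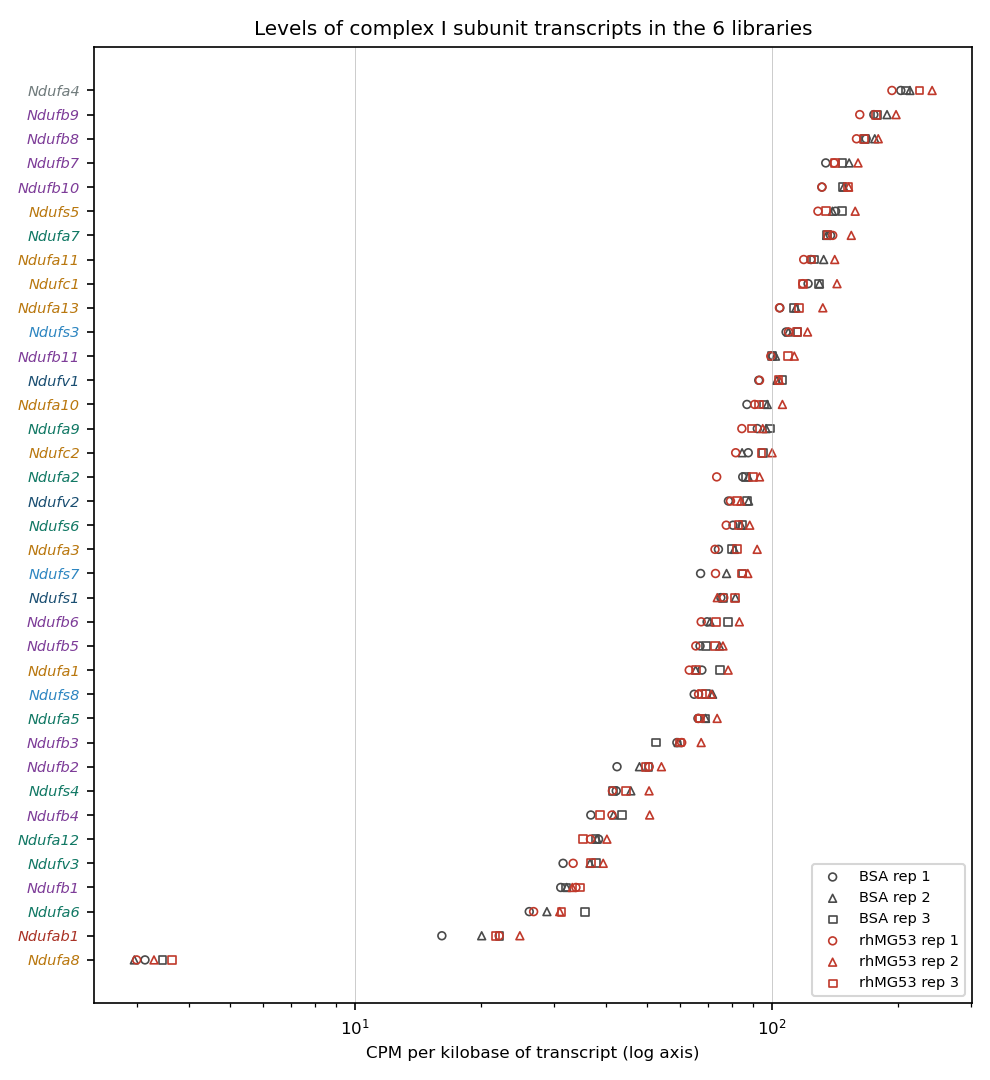
Level of 37 of the genes in each of the 6 libraries, in CPM per kilobase of transcript on a log axis, ordered by mean; marker shape gives the replicate, marker colour the treatment (grey BSA, red rhMG53) and the colour of the gene name its role. Ndufa4 is near the top at 214.7, Ndufa8 stands apart at 3.24, and the treatment groups are intermingled for nearly all genes.

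Ndufa8 was the weakly counted exception of the set. Its counts were between 45 and 61 in a library, which is 2.70, 2.54 and 2.97 CPM with BSA and 2.57, 2.83 and 3.13 CPM with rhMG53. How reads that map to several places were counted is not known here, and its part in this low level was not tested. The other 37 members stood above 15 CPM in every library, and 12 members had a mean over 100 CPM.

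The comparison of rhMG53 with BSA asks whether the added protein changed these transcripts. No complex I subunit gene passed the test in either direction. In edgeR's quasi-likelihood test with Benjamini-Hochberg adjustment over all 13769 genes, 0 of 38 members had an adjusted p under 0.05, against 0.0218% of all genes (3 genes). DESeq2 and limma voom also called 0 members. At an unadjusted p under 0.05, 1 member was higher, Ndufab1, and 0 were lower, against 2.98% of all genes higher and 2.22% lower. Groups did not overlap for 2 members that were higher, Ndufb1 and Ndufb3, and for 0 that were lower, against 5.94% and 4.83% of all genes.

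Fold changes were small. Log2 fold changes were positive for 23 members and negative for 15, against 50.5% positive among all genes tested, with a median of 0.03 (all genes 0.0014) and a range from -0.10 for Ndufa9 to 0.24 for Ndufab1. With plain library totals in place of TMM the split was 31 positive to 7 negative. Fold changes lay within 1.1-fold for 37 of the 38 members (97.4%), against 71.8% of all genes tested. Among the 10840 tested genes within the members' range of CPM, the share was 80.3%. That range starts at the low level of Ndufa8, so these genes are not matched to the members in level. Median levels were 71.7 CPM for members and 18.4 CPM for all genes tested. The 95% interval of the fold lay within 1.5-fold for all 38 members. The interval reached furthest from 1 for Ndufab1, up to 1.38-fold, and for Ndufa8, from 0.80-fold to 1.35-fold. The median SE of the log2 fold change was 0.076 for members, 0.089 for tested genes within their range of CPM and 0.10 for all genes.

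**Figure D2:**
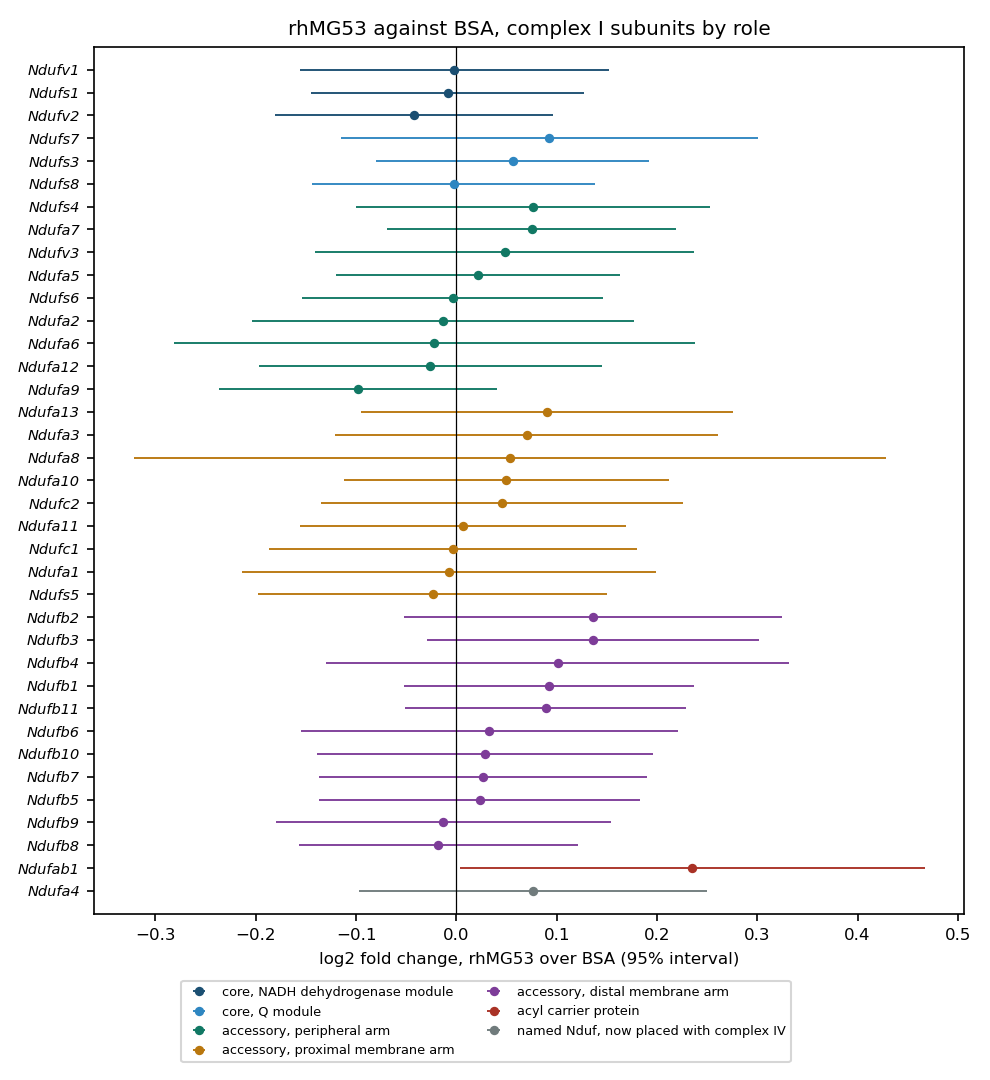
Log2 fold change of rhMG53 over BSA (points) with 95% intervals (lines) for 37 of the genes, grouped and coloured by role. Intervals include 0 except that of Ndufab1, which runs from 0.0037 to 0.47 before any adjustment for multiple testing.

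The 3 core subunits of the NADH dehydrogenase module, where NADH is oxidised, differed little. Ndufv1, which holds the flavin that accepts electrons from NADH, stood at 154.3, 170.4 and 175.9 CPM with BSA and at 154.9, 172.9 and 172.0 CPM with rhMG53. In both groups replicate 1 was the lowest library, and the groups overlapped. Ndufv2, an iron-sulfur subunit beside it, stood at 133.3, 149.0 and 147.7 CPM with BSA and at 134.8, 142.8 and 139.9 CPM with rhMG53. Ndufs1, the large iron-sulfur subunit, stood at 200.5, 217.2 and 202.6 CPM with BSA and at 203.7, 196.6 and 216.4 CPM with rhMG53. The log2 fold changes were -0.0020 (SE 0.070) for Ndufv1, -0.04 (SE 0.063) for Ndufv2 and -0.0084 (SE 0.062) for Ndufs1. Ndufs1 was the only member with its lowest value in rhMG53 replicate 2.

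Core subunits of the Q module, which carries electrons to ubiquinone, also had overlapping groups. Ndufs3, which holds no cofactor, stood at 113.0, 114.3 and 120.3 CPM with BSA and at 114.5, 127.2 and 119.9 CPM with rhMG53. Replicate 1 was the lowest library of each group. Ndufs7, which carries the last iron-sulfur cluster before ubiquinone, stood at 51.0, 58.9 and 64.3 CPM with BSA and at 55.4, 66.3 and 64.05 CPM with rhMG53. Ndufs8, with a pair of iron-sulfur clusters, stood at 63.9, 70.7 and 68.2 CPM with BSA and at 65.5, 70.2 and 66.7 CPM with rhMG53. Log2 fold changes were 0.09 (SE 0.094) for Ndufs7, 0.06 (SE 0.062) for Ndufs3 and -0.0026 (SE 0.064) for Ndufs8. That of Ndufs7 was 0.0072 without BSA replicate 1 and 0.17 without BSA replicate 3, and that of Ndufs3 was 0.016 without rhMG53 replicate 2.

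Ndufab1 had the smallest p of the 38 genes. It encodes the mitochondrial acyl carrier protein, which serves mitochondrial fatty acid synthesis and iron-sulfur cluster assembly besides its place in complex I. It stood at 56.1, 69.9 and 77.2 CPM with BSA and at 77.0, 86.4 and 75.5 CPM with rhMG53. The highest BSA library was above 2 of the rhMG53 libraries, so the groups overlapped, and BSA replicate 1 was the low library. The log2 fold change was 0.24 (SE 0.105), with adjusted p = 0.950 in edgeR. It lay between 0.12 and 0.34 as each library was left out in turn.

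Accessory subunits of the distal membrane arm, the far part of the proton pump, held both genes whose groups did not overlap. Of its 11 members 9 had positive and 2 negative log2 fold changes, and 0 passed the test. Ndufb3, a small membrane subunit, stood at 45.1, 45.4 and 40.2 CPM with BSA and at 46.3, 51.5 and 45.8 CPM with rhMG53. Ndufb1, another small membrane subunit, stood at 26.8, 27.7 and 27.6 CPM with BSA and at 29.1, 28.6 and 29.8 CPM with rhMG53. Every rhMG53 library of these 2 genes was above every BSA library, as was so for 5.94% of all genes tested. Log2 fold changes were 0.14 (SE 0.075) for Ndufb3 and 0.09 (SE 0.066) for Ndufb1, with adjusted p = 0.965 and 0.973 in edgeR. Ndufb2 stood at 19.3, 21.9 and 22.99 CPM with BSA and at 23.1, 24.7 and 22.6 CPM with rhMG53. Ndufb11 stood at 91.2, 92.5 and 90.6 CPM with BSA and at 90.1, 102.6 and 99.1 CPM with rhMG53. Ndufb9, which like Ndufa6 is a LYR protein that binds the acyl carrier protein, stood at 123.5, 132.8 and 126.0 CPM with BSA and at 114.2, 139.6 and 125.0 CPM with rhMG53. The groups overlapped for these 3 genes, whose log2 fold changes were 0.14 (SE 0.085), 0.09 (SE 0.064) and -0.01 (SE 0.076). The other 6 genes of the arm, Ndufb4 to Ndufb8 and Ndufb10, lay between -0.02 (Ndufb8) and 0.10 (Ndufb4).

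Accessory subunits of the peripheral arm split into 4 with positive and 5 with negative log2 fold changes. Ndufa9, a subunit near the ubiquinone site that binds NADPH, had the most negative value of the 38 genes. It stood at 133.1, 139.8 and 143.0 CPM with BSA and at 122.2, 137.2 and 129.2 CPM with rhMG53. Its rhMG53 replicate 2 was above 1 BSA library, so the groups overlapped. The log2 fold change was -0.10 (SE 0.063), with adjusted p = 0.973 in edgeR. Ndufa12, which takes the place of the assembly factor Ndufaf2 late in assembly, stood at 21.7, 21.5 and 21.3 CPM with BSA and at 20.8, 22.7 and 19.9 CPM with rhMG53. Ndufa6 stood at 15.4, 17.01 and 20.95 CPM with BSA and at 15.8, 18.3 and 18.4 CPM with rhMG53. Log2 fold changes were -0.03 (SE 0.078) for Ndufa12 and -0.02 (SE 0.118) for Ndufa6, and the groups overlapped for both. The remaining 6 genes of the arm lay between -0.01 for Ndufa2 and 0.08 for Ndufs4, whose loss causes mitochondrial encephalopathy in mice.

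Accessory subunits of the proximal membrane arm, next to the peripheral arm, had 6 positive and 3 negative log2 fold changes. Ndufs5, on the intermembrane space side, stood at 74.5, 73.2 and 77.3 CPM with BSA and at 67.6, 83.0 and 70.8 CPM with rhMG53, where replicate 2 was the highest library and replicate 1 the lowest of all 6. Its log2 fold change was -0.02 (SE 0.079), the most negative of the arm. Ndufa13, also known as GRIM-19, had the most positive, 0.09 (SE 0.084), from a mean of 138.1 ± 6.59 CPM to 147.0 ± 17.7 CPM (SD, n = 3 each). Ndufa8 was at 0.05 (SE 0.170), the widest error of the 38 genes.

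Ndufa4, which carries a complex I name, stood at 124.1, 130.6 and 127.8 CPM with BSA and at 118.2, 147.6 and 137.6 CPM with rhMG53. The rhMG53 libraries held both the lowest and the highest value. The log2 fold change was 0.08 (SE 0.079), with adjusted p = 0.983 in edgeR. It was 0.0040 without rhMG53 replicate 2 and 0.16 without rhMG53 replicate 1. Without Ndufa4 the remaining 37 genes had a median log2 fold change of 0.03.

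Summed over the 38 genes, the level was 3131, 3368 and 3348 CPM in BSA replicates 1 to 3 and 3121, 3559 and 3330.4 CPM in rhMG53 replicates 1 to 3. The rhMG53 group held the lowest and the highest library. Group means were 3282 ± 131 and 3337 ± 219 CPM (SD, n = 3 each), a difference of 1.67%. An exact 2-sided permutation test gave p = 1.0, where 3 against 3 libraries cannot give less than 0.1.

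The libraries differed from one another in a way that most members shared. In rhMG53 replicate 2, 29 of the 38 members (76.3%) had their highest value, against 22.7% of all genes tested. Their lowest value lay in BSA replicate 1 for 15 members and in rhMG53 replicate 1 for 18, together 86.8% against 32.1% of all genes. Of 40 nuclear-encoded genes of complexes II to V, 57.5% were highest in rhMG53 replicate 2, 32.5% were highest in BSA replicate 2, and 82.5% were lowest in either replicate 1. By complex, rhMG53 replicate 2 was highest for 0 of 3 genes of complex II, 4 of 8 of complex III, 9 of 13 of complex IV and 10 of 16 of complex V. BSA replicate 2 was highest for all 3 genes of complex II and for the other 4 of complex III. These shares depend on the scaling. With plain library totals in place of TMM, rhMG53 replicate 2 was highest for 84.2% of members and 82.5% of the 40 genes. The share of all genes tested was then 29.7%. BSA replicate 2 was then highest for 1 gene of complex II and 2 of complex III. The median deviation of the 38 members from their own mean was 0.14 in rhMG53 replicate 2, -0.07 in BSA replicate 1 and -0.10 in rhMG53 replicate 1, on the log2 scale. The other 3 libraries lay between 0.01 and 0.02.

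**Figure D3:**
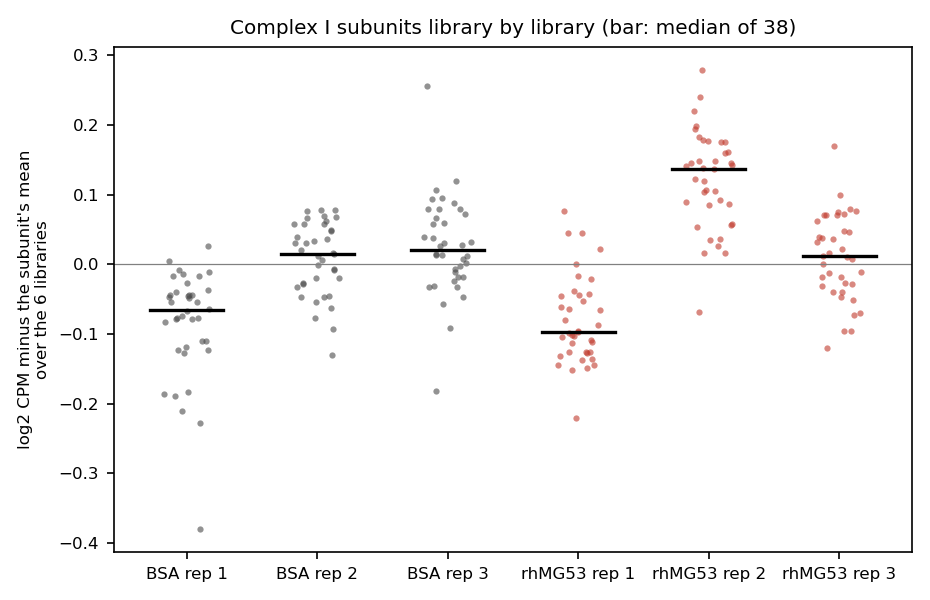
Each point is 1 of the 38 genes in 1 library, as log2 CPM minus the gene's own mean over the 6 libraries, with a bar at the median (grey BSA, red rhMG53). The median is 0.14 in rhMG53 replicate 2 and below 0 in both libraries numbered 1, whereas the groups as a whole are not set apart.

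As each library was left out, the sign of the median log2 fold change turned only without rhMG53 replicate 2 or BSA replicate 1. Without rhMG53 replicate 2 the split was 11 positive to 27 negative, with a median log2 fold change of -0.02. Leaving out BSA replicate 1 gave 18 to 20 and a median of -0.01, and leaving out rhMG53 replicate 1 gave 34 to 4 and 0.09. In none of these fits did a member pass the test. In rhMG53 replicate 2 the differentiated muscle markers also had their lowest sum, 41134 CPM against 45662 to 48926 CPM in the other 5 libraries. Myh3, at 17689 CPM there, was the largest part of that sum. Myh3, Myh8 and Ttn were lowest in that library. By contrast Myog, Mymk, Mymx and Tnnt3 were highest in it, and Myod1, Acta1 and Ckm lay between. Lyz2, a macrophage gene, also had its highest level there, 3.98 CPM against 0.565 to 0.858 CPM. The part of these genes in the pattern was not tested. Over the whole lists, the sum of 8 macrophage and leukocyte markers ranged from 6.95 to 8.09 CPM with BSA and from 7.30 to 11.4 CPM with rhMG53, and the 7 endothelial markers summed to 1.53 to 2.43 CPM and 1.62 to 2.20 CPM. The 7 fibro-adipogenic markers summed to 456.6 to 528.8 CPM and 477.2 to 528.9 CPM, most of it Col3a1. The 6 Schwann cell and pericyte markers summed to 114.6 to 147.5 CPM and 102.7 to 138.3 CPM, most of it Abcc9, and the 5 adipocyte markers to under 1 CPM in every library. Some defining markers of these types were near 0. Ptprc had at most 2 counts in a library, Adgre1 at most 3 and Pecam1 at most 2. Adipoq had at most 3 and Sox10 at most 4. Others were not: Itgam, on the macrophage and leukocyte list, had 76 to 116 counts in a library. It was the largest part of that list's sum in every library. Pdgfra of fibro-adipogenic cells stood at 21.0 and 22.7 CPM on average. Sums of the 8 satellite cell markers, most of it Itga7, were 1882 to 1961 CPM with BSA and 1710.4 to 1860 CPM with rhMG53.

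The core subunits encoded by mitochondrial DNA, which make up the centre of the membrane arm, were also counted. All 7 had negative log2 fold changes, and 0 passed the test. Their summed level was 27757, 25465 and 31111 CPM with BSA and 27773, 26519 and 22306 CPM with rhMG53. The groups overlapped, with rhMG53 replicate 3 lowest and BSA replicate 3 highest. Means were 28111 ± 2840 and 25533 ± 2864 CPM (SD, n = 3 each), with an exact permutation p of 0.5. The median log2 fold change was -0.12, and the groups overlapped for each gene. These genes are cut from shared long transcripts and are not separate observations. The lowest p values belonged to mt-Nd4l at -0.19 (SE 0.096) and mt-Nd5 at -0.18 (SE 0.097), both with adjusted p = 0.965 in edgeR. The ratio of the mitochondrial to the nuclear sum was 8.57 ± 0.902 with BSA and 7.68 ± 1.12 with rhMG53 (SD, n = 3 each), with an exact permutation p of 0.3. Libraries were selected for poly(A), and most mitochondrial messenger RNAs carry only short tails, so the ratio describes these libraries.

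**Figure D4:**
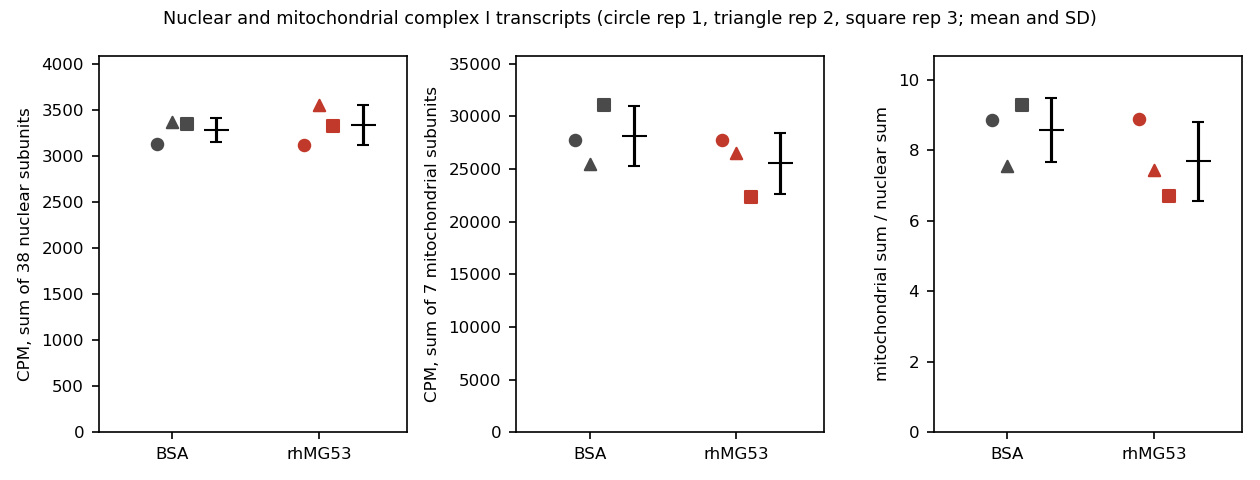
Summed CPM of the 38 nuclear genes (left), summed CPM of the 7 mitochondrial genes (middle) and their ratio (right), by library, with group mean and SD; all axes start at 0. The groups overlap in all 3 panels, with means of 3282 and 3337 CPM on the left and 28111 and 25533 CPM in the middle.

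Assembly factors, which build the complex but do not stay in it, numbered 16 in the table, all tested. Log2 fold changes were positive for 11 and negative for 5, and 0 passed the test. Ndufaf5, which modifies Ndufs7 during assembly, had groups that did not overlap, at 11.9, 13.2 and 11.8 CPM with BSA and 9.54, 9.05 and 9.91 CPM with rhMG53. Its log2 fold change was -0.37 (SE 0.099), with adjusted p = 0.935 in edgeR. Of all genes tested, 4.83% were lower without overlap of the groups. Nubpl, which delivers iron-sulfur clusters to the complex, was at 0.54 (SE 0.224), from 2.34, 2.77 and 2.20 CPM to 3.58, 4.52 and 2.49 CPM, with overlapping groups. The median of the 16 was 0.03.

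No nuclear-encoded gene of the other respiratory chain complexes passed the test either. Positive and negative log2 fold changes numbered 0 and 3 for complex II (succinate dehydrogenase), 3 and 5 for complex III, 9 and 4 for complex IV and 10 and 6 for complex V (ATP synthase). The 40 genes had a median of 0.0029. Cox5a, a subunit of cytochrome c oxidase, had the smallest p, at 115.8, 133.6 and 140.1 CPM with BSA and 152.7, 159.0 and 150.5 CPM with rhMG53, with groups that did not overlap. Its log2 fold change was 0.25 (SE 0.074), with adjusted p = 0.935 in edgeR. Cox5b was at 0.19 (SE 0.081) with adjusted p = 0.950 in edgeR. Of the 40 genes, 2 were higher without overlap of the groups, Cox5a and Cox8a, and 1 was lower, Uqcrh. The shares among all genes tested were 5.94% and 4.83%. Cox8a was at 0.13 (SE 0.064) and Uqcrh at -0.13 (SE 0.060).

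Of 10 regulators of respiratory chain genes, 7 had positive and 3 negative log2 fold changes and 0 passed. Their summed level was 411, 410 and 408 CPM with BSA and 424, 414 and 429 CPM with rhMG53. These sums did not overlap, and an exact 2-sided permutation test gave p = 0.1, the smallest that 3 against 3 libraries can give. Nfe2l2 was the largest part of the sum. Nrf1, whose element is among those searched above, had a mean of 18.0 ± 0.160 CPM in BSA and 18.6 ± 1.73 CPM in rhMG53 libraries (SD, n = 3). Yy1 stood at 45.8 ± 1.96 and 47.6 ± 1.97 CPM, and Ppargc1a, the coactivator of mitochondrial biogenesis, at 16.8 ± 1.09 and 16.6 ± 0.462 CPM (SD, n = 3 each). Nfe2l2, which encodes the oxidative stress factor NRF2, stood at 88.8, 82.6 and 90.9 CPM with BSA and 100.2, 92.6 and 94.0 CPM with rhMG53, with groups that did not overlap. Its log2 fold change was 0.13 (SE 0.063), with adjusted p = 0.965 in edgeR. Of all genes tested, 5.94% were higher without overlap of the groups.

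Copies and neighbours limit some of these counts. Rows with a suffix to a member's name were kept apart: Ndufb4b at 13.9 CPM and Ndufb4c at 14.8 CPM, copies of Ndufb4, the pseudogene Ndufs5-ps at 5.38 CPM, Ndufs6b at 1.53 CPM and Ndufa11b with 1 count in all. They can share reads with the named gene, so Ndufb4, Ndufs5 and Ndufs6 are uncertain to that degree. Ndufa4l2, a hypoxia-inducible relative of Ndufa4, stood at 3.21 CPM with a log2 fold change of 0.35 (SE 0.250) and adjusted p = 0.973 in edgeR. An exon of another gene overlaps 17 of the 38 members, on the opposite strand for 15, among them Ndufab1, Ndufb1, Ndufb2, Ndufb11, Ndufa9, Ndufs1 and Ndufs3. Whether the counting used strand is not given in the sources used here, so reads of such pairs cannot be told apart with certainty.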

How the data were processed

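The authors deposited 1 table of whole-number read counts per gene for 6 libraries, not normalised, with rows named by NCBI gene ID. Per the labels' protocols, RNA was selected for poly(A) and libraries kept strand (directional kit, low input). STAR, featureCounts, edgeR and build mm10 are named in the submitters' processing notes. Their versions, the annotation, the strand setting of the counting and its filters were not given in the sources used here. Symbols came from a RefSeq table of GRCm38.p6 and a GENCODE table (1863 of 27179 rows stayed unnamed); Ndufb1 was matched through an older ID. Overlaps and head-to-head starts came from GENCODE vM21, promoter sequences from RefSeq.

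Genes were kept with filterByExpr (minimum count 10, minimum total 15) and scaled with TMM. They were tested 2-sided by the quasi-likelihood method of edgeR, with Benjamini-Hochberg adjustment (edgeR 4.0.16, limma 3.58.1, DESeq2 1.42.0, R 4.3.3). A run of the method on simulated data gave every gene the same spread, unlike these data, and no result here rests on it. The common biological coefficient of variation, the spread beyond counting error, was 7.89%. Members and lists were chosen with earlier results of these data known. Named were the 7 core subunits, Ndufab1, Ndufa4, the 5 smallest p in each direction, the 3 highest and 3 lowest levels per length, and the 2 smallest p of other lists; 1 gene that the rule names is not reported here. Alternatives were other scalings, filters and tests, the replicate number as a term, and leaving out each library.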

Additional observations from a re-analysis of the deposited data

How the results depend on the processing

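The count of members past the adjusted threshold was 0 under each of the 15 alternative fits and as each library was left out (range 0 to 0); an unadjusted p under 0.05 in place of the adjusted one gave 1. The median log2 fold change of the members was between -0.0244 and 0.0884 with a library left out, and the log2 ratio of their summed CPM between -0.0248 and 0.0698, the negative sums coming without BSA replicate 1 (-0.0089) and without rhMG53 replicate 2 (-0.0248). For the 18 named members, 248 of 269 alternative values kept their sign and 21 turned it, none of them in a gene past the threshold. Ndufa8 has no value with a minimum mean of 5 CPM. With library totals alone the log2 fold change became positive for Ndufv1 (0.0128), Ndufs1 (0.0057), Ndufs8 (0.0124) and Ndufb9 (0.0025). With a library left out, values ranged from -0.0544 to 0.0475 for Ndufv1, -0.0491 to 0.0286 for Ndufs1, -0.0410 to 0.0310 for Ndufs8, -0.0808 to 0.0113 for Ndufa12, -0.117 to 0.0358 for Ndufs5, -0.0916 to 0.0539 for Ndufb9, -0.0202 to 0.122 for Ndufa8 and -0.118 to 0.111 for Ndufa6. Of the members whose sign held throughout, the ranges were -0.0912 to -0.0136 for Ndufv2, 0.0157 to 0.0918 for Ndufs3, 0.0072 to 0.172 for Ndufs7, 0.0040 to 0.161 for Ndufa4, 0.0659 to 0.191 for Ndufb2, 0.0798 to 0.166 for Ndufb3, 0.0483 to 0.141 for Ndufb11, 0.0746 to 0.107 for Ndufb1, -0.141 to -0.0581 for Ndufa9 and 0.116 to 0.340 for Ndufab1. The cause was not tested. Where a group is left with fewer libraries, its spread is estimated with that of the other group.

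With the replicate number as a term (replicate block), 0 members passed and their median log2 fold change was 0.0265, so it changed no call of a member; over all genes 0 passed, against 3 without it. Same-numbered libraries did not deviate together throughout (correlations of deviations 0.19, -0.13 and -0.15 for replicates 1 to 3), so the numbers were not taken as pairs; the labels do not say what a number stands for, and whether the libraries numbered 1 share an origin was not tested. Depth limits Ndufa8 most, with 45 to 61 counts in a library.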

Other observations

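Some subunit genes of other respiratory chain complexes were listed at or near 0 although their partners were abundant. Sdhd, the membrane anchor of complex II, had at most 3 counts in a library, Uqcr11 of complex III at most 1 and Cox7a2 of complex IV at most 6, whereas the other 3 genes of complex II had a median level of over 100 CPM. Cox4i2 and Cox6b2, tissue-restricted isoforms, had at most 5 and 12 counts. No complex I subunit was counted so low: the lowest, Ndufa8, had at least 45 counts in every library. How reads that map to several places were counted is not given in the sources used here, and its part in these low counts was not tested.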
